A study of Mus musculus with 66 samples.

Results

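Transcripts of the cytosolic ribosomal proteins were examined in mouse small intestinal organoids. Members were taken by symbol: Rpl or Rps followed by a digit, together with Rplp0, Rplp1, Rplp2 and Rpsa, leaving out the Rps6k kinases. The rule took 75 gene symbols, represented by 76 transcripts, out of 8978 symbols and 9481 transcripts, because Rpl5 was listed under 2 RefSeq transcripts. Of the 75 symbols, Rps19bp1 encodes a protein that binds a ribosomal protein and is not one itself. Rpl22l1, Rpl7l1, Rps27l and Rps27rt are paralogs or copies of other ribosomal protein genes. All 76 transcripts had at least 53 counts in every library and were tested.

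The organoids carried the Lgr5 GFPDTR/+ reporter allele in every culture. ENR medium, the regular culture, held EGF at 50 ng/ml, 10% Noggin and 5% R-Spondin-1, both as conditioned medium. CV cultures received ENR with 3 µM CHIR99021 and 1 mM valproic acid and are labelled as stem cell enriched, whereas EN cultures lacked R-Spondin-1 and are labelled as stem cell depleted. CV and EN were kept in their media for different lengths of time, so medium and time in it cannot be told apart. Of 5 stem cell markers, Lgr5 among them, all were lower in EN than in CV, but 4 were also lower in CV than in ENR, with summed TPM of 236 to 274 in CV, 912 to 996 in ENR and 16.6 to 18.4 in EN. Olfm4 carried the gap between CV and ENR, with mean TPM of 7.04 and 708, while the other 4 markers summed to 242 and 260. RNA was sequenced after depletion of ribosomal RNA in 4 libraries per culture, which held 5708811 to 8935506 expected counts, spike-ins included. Nothing says whether the libraries of a group came from separate cultures or animals, so p-values measure only the spread between these libraries.

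The cytosolic ribosome is built from a small subunit, which decodes the mRNA, and a large subunit, which joins amino acids, and each carries a defined set of proteins bound to ribosomal RNA. In mammals most of these mRNAs start with a C followed by a tract of pyrimidines, the 5' terminal oligopyrimidine (TOP) motif, through which mTORC1 and Larp1 control their translation. In the intestinal crypt, dividing stem and progenitor cells make many ribosomes, and cells leave the cycle as they differentiate along the villus.

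The stretch around the annotated start is shown for members on which the results turn, since the TOP motif lies there. Sequences are from RefSeq (GRCm38.p6), 15 bases on each side of the annotated start, 5' to 3', and capitals mark the longest pyrimidine run of at least 5 bases from its first C. The first 3 belong to members with large differences between EN and CV, the next 3 to abundant members or members with large differences from ENR, the next 2 to paralogs, and the last 3 have no such run. Rps21 and Rps27l each have another annotated start without such a run, which is not shown. A marked run need not begin at the start, and that of Rps27l lies wholly upstream of it.
Rps2, chr17:24720048-24720077, plus strand: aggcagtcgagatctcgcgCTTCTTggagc
Rplp2, chr7:141447636-141447665, plus strand: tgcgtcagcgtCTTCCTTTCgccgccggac
Rps21, chr2:180257364-180257393, plus strand: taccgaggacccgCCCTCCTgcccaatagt
Rps12, chr10:23787195-23787224, minus strand: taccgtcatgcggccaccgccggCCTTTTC
Rps18, chr17:33955651-33955680, minus strand: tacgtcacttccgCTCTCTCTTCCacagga
Rpl12, chr2:32961697-32961726, plus strand: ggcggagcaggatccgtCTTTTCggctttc
Rps27l, chr9:66946071-66946100, plus strand: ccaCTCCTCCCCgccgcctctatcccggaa
Rpl22l1, chr3:28805493-28805522, plus strand: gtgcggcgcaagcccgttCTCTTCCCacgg
Rpsa, chr9:120127751-120127780, plus strand: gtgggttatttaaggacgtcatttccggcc
Rpl10, chrX:74270801-74270830, plus strand: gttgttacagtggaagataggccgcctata
Rps4x, chrX:102189377-102189406, minus strand: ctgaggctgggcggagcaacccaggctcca
Of the 75 symbols, 57 matched the promoter table. A run of this kind was found for 41 of them (71.9%) and for 44.1% of 27025 genes in the table. A gene counted if a run began within 15 bases of any of its listed starts. These are therefore not shares of mRNAs that start with a TOP motif. The 7 letters CCGGAAG, the core bound by ETS factors, stood in 22 of the 57 (38.6%) and in 9.93% of all genes. They were sought on either strand of the 300 bases around the start. Rps2, Rpsa, Rplp2 and Rps27l were among the 22. The letters AAGATGGC, the core bound by YY1, were found in 5 of the 57 (8.77%) and in 3.19% of all genes. The median log2 fold change between EN and CV was -0.64 in the 41 genes with a run and -0.54 in the 16 without. In the 22 genes with CCGGAAG it was -0.68, and in the 35 without it was -0.53. For EN against ENR the medians were -0.97 and -0.82 with and without a run, and -0.97 and -0.87 with and without CCGGAAG. For CV against ENR they were -0.30 and -0.30, and -0.19 and -0.34, so there genes with CCGGAAG fell less. These differences were not tested. These letters are a description of the sequence and mark no known binding in these cells.

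Ribosomal protein transcripts made up a smaller share of TPM in EN than in the other cultures. The TPM are over an index limited to transcripts with quantified protein, so these are not shares of all mRNA. Summed over the 76 transcripts, they held 24.7, 24.9, 24.7 and 24.4% of all TPM in the CV libraries, 28, 27.7, 27.8 and 27.7% in ENR and 13.4, 13.2, 12.7 and 13.3% in EN. The 3 cultures did not overlap, with ENR highest and EN lowest. TPM counts reads per length of transcript and sums to the same total in each library. As a share of counts, to which long transcripts give more reads, they held between 9.48% and 9.85% (CV), between 11.7% and 12.1% (ENR) and between 4.61% and 5.04% (EN). These are bulk libraries, in which fewer cells of a type and less RNA per cell cannot be told apart.

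**Figure D1:**
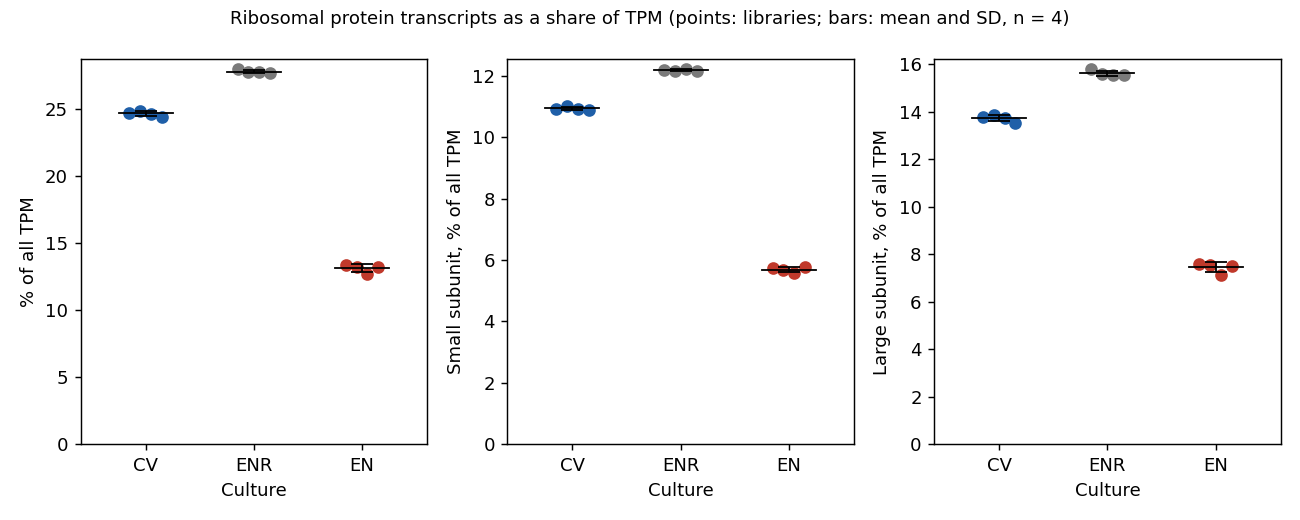
Share of all TPM held by ribosomal protein transcripts (y axis, percent, from 0) in CV, ENR and EN, for all members, the small subunit and the large subunit. Points are libraries and bars the mean and SD of 4. All 4 EN libraries lie between 12.7% and 13.4% for all members, below the CV and ENR libraries.

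Both subunits took part. Small subunit transcripts held 10.9% ± 0.05 (SD, n = 4) of TPM in CV, 12.2% ± 0.026 in ENR and 5.69% ± 0.091 in EN. Large subunit transcripts, the stalk included, held 13.7% ± 0.14, 15.6% ± 0.12 and 7.45% ± 0.21 in the same order. The ratio of large to small subunit TPM lay between 1.24 and 1.26 in CV, 1.27 and 1.30 in ENR, and 1.28 and 1.33 in EN. The ratio in EN was above that in every CV library and overlapped with ENR.

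Each transcript was then compared with edgeR's quasi-likelihood test on rounded expected counts after TMM normalization, and a change was called at a Benjamini-Hochberg adjusted p under 0.01 over all 9288 transcripts tested. CPM below stands for TMM-scaled counts relative to library size. Between EN and CV, 68 of 76 transcripts were lower in EN and 0 higher (2 at an unadjusted p under 0.05, Rps29 and Rps27rt, which DESeq2 called higher and scaling by library size, TPM or spike-ins put lower), whereas 41.2% of all transcripts tested were called lower and 35.2% higher. The median log2 fold change was -0.60 for the members and -0.076 for all transcripts. Between EN and ENR, 74 were lower and 0 higher, against 37.2% and 35.5% of all, with medians of -0.87 and -0.012. Between CV and ENR, 56 were lower and 2 higher in CV, against 29.8% and 30.2% of all, with medians of -0.32 and -0.0082. The 3 comparisons share libraries and are not independent of each other. For 50 of the 76 transcripts all 3 differences were called, in the order ENR, CV, EN from highest to lowest, and 16 more were lower in EN than in both other cultures with no call between CV and ENR. All EN libraries lay below all CV libraries in CPM for 67 transcripts, and below all ENR libraries for 74. How often all transcripts showed these orders or lay apart in this way was not counted, so the numbers describe the members alone.

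The members differed widely in level. Mean TPM over the 12 libraries went from 31.2 for Rps19bp1 to 8029 for Rplp1, with a median of 2887, and 66 of the 76 transcripts stood at 1000 TPM or more. Rplp1 held 7778 ± 288 TPM (SD, n = 4) in CV, 10566 ± 119.8 in ENR and 5745 ± 360.2 in EN. Rps12, Rps18 and Rpl32 followed in this order. Rpl7l1 held 121 ± 1.23, 107 ± 3.37 and 70.4 ± 0.409. The fold changes were spread less than the levels: the quartiles of the members stood at -0.73 and -0.44 for EN against CV, at -1.05 and -0.70 for EN against ENR and at -0.42 and -0.19 for CV against ENR. Signed values from here on are log2 fold changes of the first culture named against the second.

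The direction on an absolute scale depended on the scaling. By the paper's methods the spike-ins were added to a fixed mass of total RNA per sample, so spike-in counts alone give no level per cell. In the mRNA copy numbers that the authors derived from spike-ins, the median of the members was 0.25 higher in EN than in CV on the log2 scale, 64 of 76 being higher, and limma called 0 of them at an adjusted p under 0.01, against 61.1% of all transcripts, with 6 higher and 0 lower at an unadjusted p under 0.05. On the same scale the median of all transcripts was 0.62 higher in EN. Summed copies of the members lay between 173382 and 246507 in CV, 162954 and 565640 in ENR, and 212348 and 378772 in EN, so that the cultures overlapped. Within each library the copies were an exact power of the TPM, with exponents from 1.03 to 1.19, and 1 TPM stood for 0.323 to 0.572 copies in CV, 0.248 to 0.400 in ENR and 0.826 to 0.998 in EN. With edgeR library sizes taken from the spike-in counts instead, the median was -1.01. Relative to the median of all transcripts, the members were lower under all 25 settings tried. The log2 differences were -0.60 to -0.37 between EN and CV, -1.09 to -0.85 between EN and ENR and -0.70 to -0.30 between CV and ENR. A size factor shifts members and all transcripts alike, and 12 of the settings each left out 1 library. Most settings could therefore hardly move these differences, and their agreement is not evidence across scalings. The falls and rises named below are on the TMM scale, that is, relative to the bulk of the transcripts tested.

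**Figure D2:**
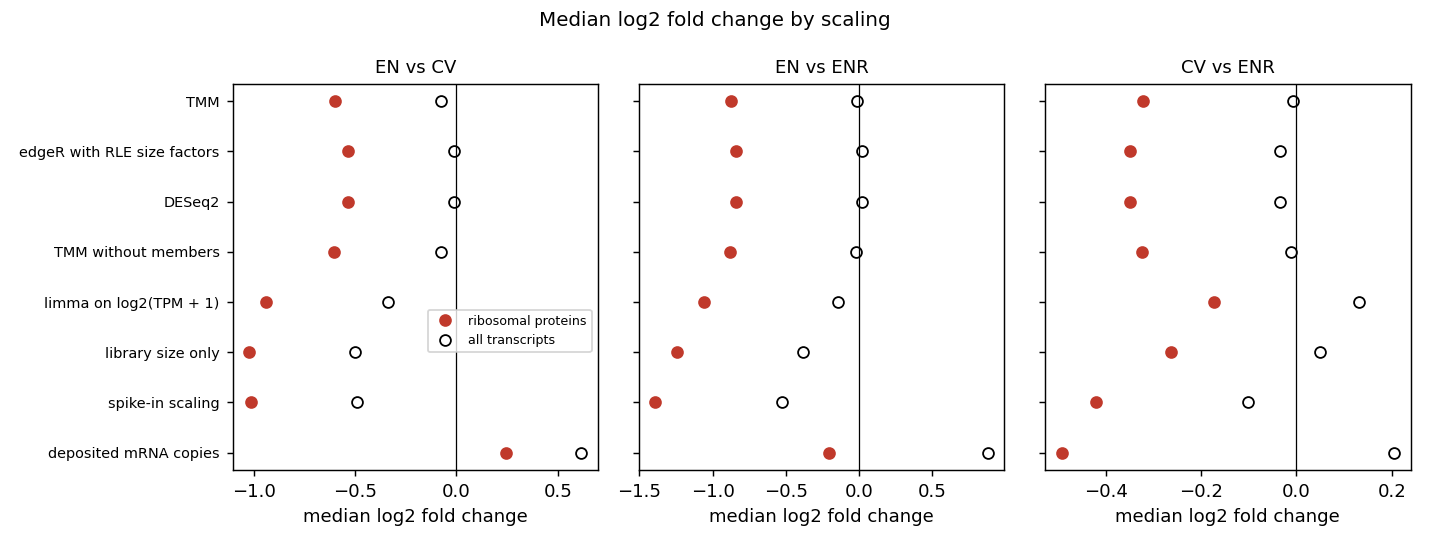
Median log2 fold change (x axis) of ribosomal protein transcripts (red) and of all transcripts tested (open) under 8 ways of scaling (y axis) in the 3 comparisons. The red point lies left of the open one in every row, and in EN vs CV it crosses 0 in the deposited mRNA copies, at 0.25.

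Of 31 small subunit transcripts, 28 were lower in EN than in CV, 18 of them by more than 1.5-fold. Of all 9288 transcripts tested, 3829 were called lower, 2810 of them by more than 1.5-fold. Rps2, a protein at the mRNA entry channel, had the largest difference among members. Rps2 stood at 2666, 2596, 2454 and 2702 CPM in CV, 2619, 2593, 2600.5 and 2562 in ENR and 1099, 1087, 1055 and 1013 in EN. The CV and ENR libraries overlapped and all 4 EN libraries lay far below them. The log2 fold change was -1.29 ± 0.037 (SE) between EN and CV (adjusted p = 3.9e-14), -1.29 ± 0.037 (SE) between EN and ENR, and 0.0062 ± 0.036 (SE) between CV and ENR (adjusted p = 0.89).

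Rpsa, which sits on the back of the small subunit and is also known as the laminin receptor, was the only one of the 4 largest falls between EN and CV in which CV was also called lower than ENR. Rpsa stood at 2772, 2744, 2681 and 2856 CPM in CV, 3402, 3382, 3407 and 3311 in ENR and 1298, 1273, 1202 and 1279 in EN. The 3 cultures did not overlap. Its log2 fold change was -1.13 ± 0.032 (SE) between EN and CV, -1.42 ± 0.033 (SE) between EN and ENR and -0.29 ± 0.032 (SE) between CV and ENR (adjusted p = 1.1e-06). Rps21, a small protein of the same subunit, fell by 1.12 on the log2 scale between CV and EN. Rps21 stood at 891, 853, 838 and 826 CPM in CV, 931, 883, 860.5 and 896 in ENR and 389, 424, 386 and 375 in EN.

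Rps12 and Rps18 were the most abundant small subunit transcripts per length, with mean TPM of 8373 ± 148 (SD, n = 4) and 8219 ± 40 in CV, 9946 ± 81 and 8405 ± 98.5 in ENR and 4566 ± 193 and 3438 ± 189 in EN. Both were lower in EN than in CV on the TMM scale (-0.53 and -0.91). Rps27a, translated as a fusion with ubiquitin, was lower in EN, with -0.67 against CV and -1.11 against ENR. Rps15a, among the 4 lowest members by TPM, was lower with -0.60 and -1.03.

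Rps29 was lower in CV and in EN than in ENR, with no call between EN and CV. Rps29, a zinc-binding protein of the small subunit head, had the largest fall between CV and ENR. Rps29 stood at 281, 313, 325 and 317 CPM in CV, 496, 493, 471 and 503 in ENR and 319, 365, 342 and 322 in EN. EN and CV overlapped, and both lay below ENR. The log2 fold change was -0.67 ± 0.050 (SE) between CV and ENR and 0.12 ± 0.051 (SE) between EN and CV (adjusted p = 0.035). Rps27rt had the same pattern of calls among the other transcripts of this subunit. Rps4x, encoded on the X chromosome, was lower in CV than in ENR (-0.61) and lower again in EN than in CV (-0.34). Rps16 varied widely between libraries, 158 to 278 CPM in CV, and its difference between EN and CV was -0.31 ± 0.14 (SE) (adjusted p = 0.05), with -0.43 to -0.16 when 1 library was left out. It was chosen after its values were seen.

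**Figure D3:**
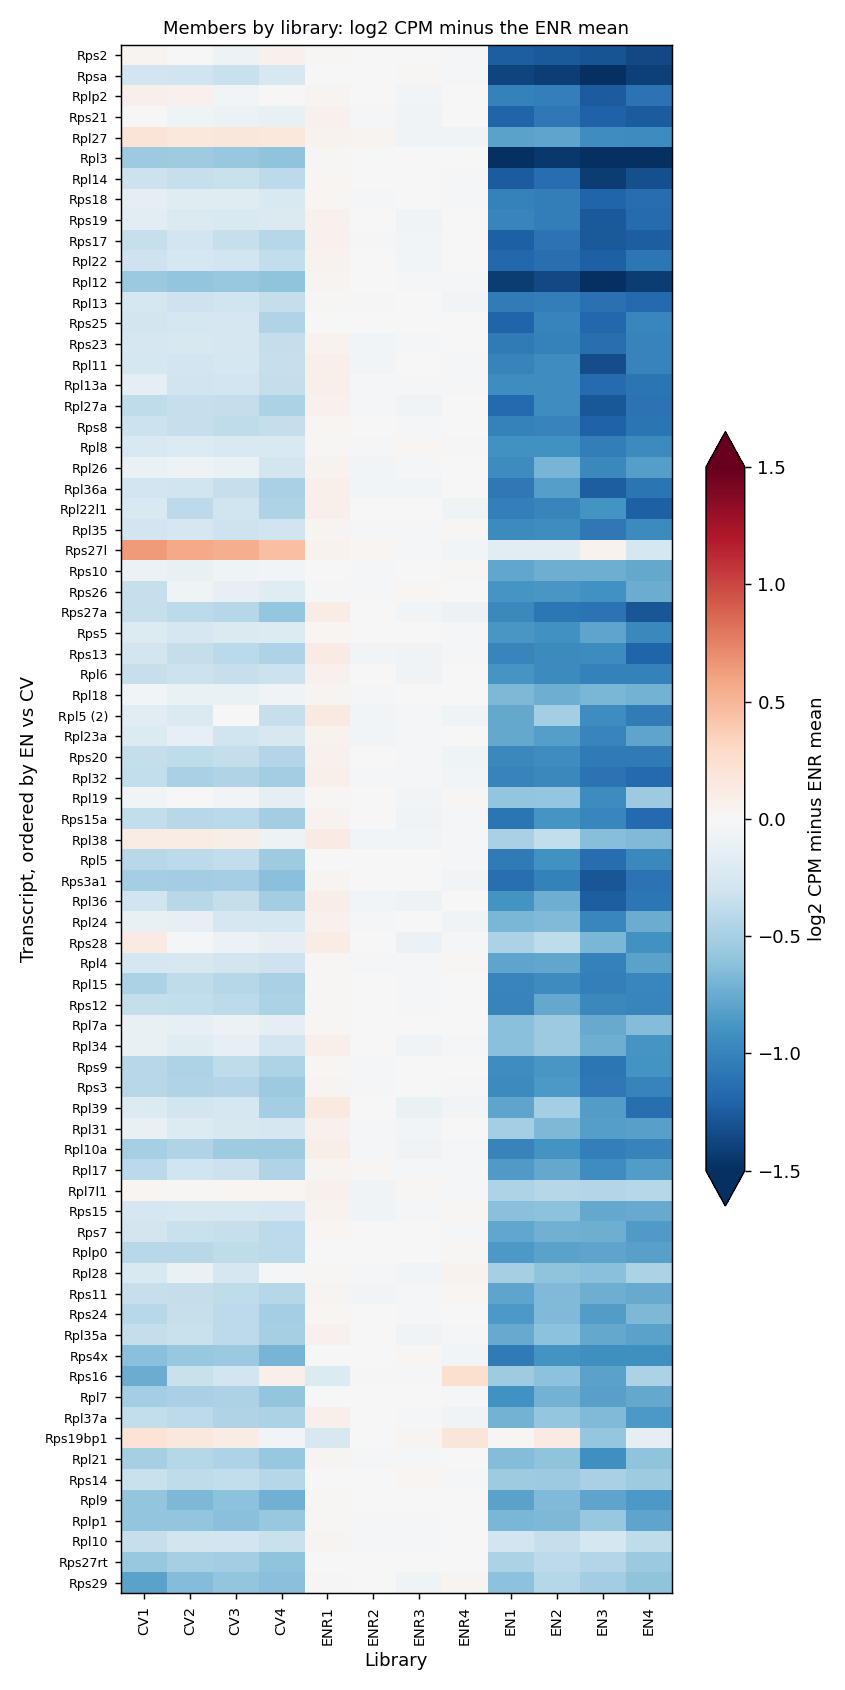
Members by library: colour gives log2 CPM minus the mean of the 4 ENR libraries, for 75 of the 76 transcripts (rows, ordered by EN vs CV) in 12 libraries (columns). Values past 1.5 in either direction take the end colour. The EN columns are blue in nearly every row, and Rps27l and Rpl27 are red in all 4 CV libraries.

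Of 44 large subunit transcripts, the stalk included, 40 were lower in EN than in CV, 23 of them by more than 1.5-fold. All 44 were lower in EN than in ENR. Over all 9288 transcripts tested these counts were 3829 and 2810 against CV and 3455 against ENR. Rpl3, which reaches toward the peptidyl transferase centre, had the largest fall between EN and ENR. Rpl3 stood at 2416, 2444, 2394 and 2335 CPM in CV, 3568, 3538, 3507 and 3530.2 in ENR and 1225, 1297, 1091 and 1252 in EN. The cultures were separate in the order ENR, CV, EN, and the log2 fold change was -1.54 ± 0.044 (SE) between EN and ENR and -0.98 ± 0.044 (SE) between EN and CV. Rpl12, at the base of the stalk, fell by 1.42 between ENR and EN and by 0.58 between ENR and CV. Rpl12 stood at 1411, 1373, 1396 and 1356 CPM in CV, 2120.3, 2065, 2049 and 2036 in ENR and 773, 806, 736 and 771 in EN.

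Rpl27 was 1 of 2 members called higher in CV than in ENR. Rpl27 stood at 539, 528, 531 and 525 CPM in CV, 491, 487, 455 and 455 in ENR and 270.2, 274, 247 and 245 in EN. The CV libraries lay above all ENR libraries, by 0.17 ± 0.042 (SE) on the log2 scale (adjusted p = 0.0021), and EN lay below both. Rpl32, among the 4 most abundant members, was lower in EN, with -0.61 against CV and -1.06 against ENR.

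Rpl5 and Rpl11 form a particle with 5S ribosomal RNA and can bind Mdm2, the ubiquitin ligase of p53. Rpl11 was lower in EN, with -0.77 ± 0.065 (SE) against CV and -1.06 ± 0.065 (SE) against ENR. The more abundant Rpl5 transcript (XM_006534684.2) was lower with -0.59 and -1.02, and the other (NM_016980.2) with -0.63 and -0.81. kallisto divides shared reads between them, so the division is uncertain. With counts summed per symbol, the median log2 fold change between EN and CV was -0.60 for the member symbols and -0.080 for all symbols.

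Rpl10, which joins the large subunit late in its assembly, was the member least different between EN and CV. Rpl10 stood at 1147, 1212, 1199 and 1163 CPM in CV, 1502, 1429.7, 1444 and 1469 in ENR and 1201, 1150.0, 1217 and 1126 in EN. The EN and CV libraries overlapped, with a log2 fold change of -0.0085 ± 0.034 (SE) (adjusted p = 0.82), and both lay below ENR. Rpl9 stood at -0.13 between EN and CV (adjusted p = 0.012) and was lower in CV than in ENR (-0.65). Rpl10 was chosen after its values were seen.

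The stalk proteins, which recruit the elongation factors, did not move alike. Rplp0 anchors the stalk and Rplp1 and Rplp2 form the pairs that extend from it. Rplp0 stood at 3473, 3467, 3537 and 3506 CPM in CV, 4588, 4588, 4632 and 4665 in ENR and 2545, 2648, 2661 and 2635 in EN. Rplp1 stood at 1399, 1397, 1366 and 1425 CPM in CV, 2139.8, 2088, 2079 and 2117 in ENR and 1312, 1323, 1417 and 1214 in EN. Rplp2 stood at 805, 795, 740.1 and 758 CPM in CV, 786, 764, 743 and 761 in ENR and 376, 374, 322 and 355 in EN. Rplp0 was lower in EN than in CV in every library and Rplp2 more so, whereas Rplp1, the most abundant member of all, overlapped between EN and CV. The log2 fold changes between EN and CV were -0.42 ± 0.027 (SE), -0.085 ± 0.040 (SE) (adjusted p = 0.06) and -1.12 ± 0.047 (SE). Between CV and ENR, Rplp0 and Rplp1 were lower in CV (-0.40 and -0.59), and Rplp2 stood at 0.021 ± 0.046 (SE) (adjusted p = 0.7). The difference between stalk members was not tested.

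**Figure D4:**
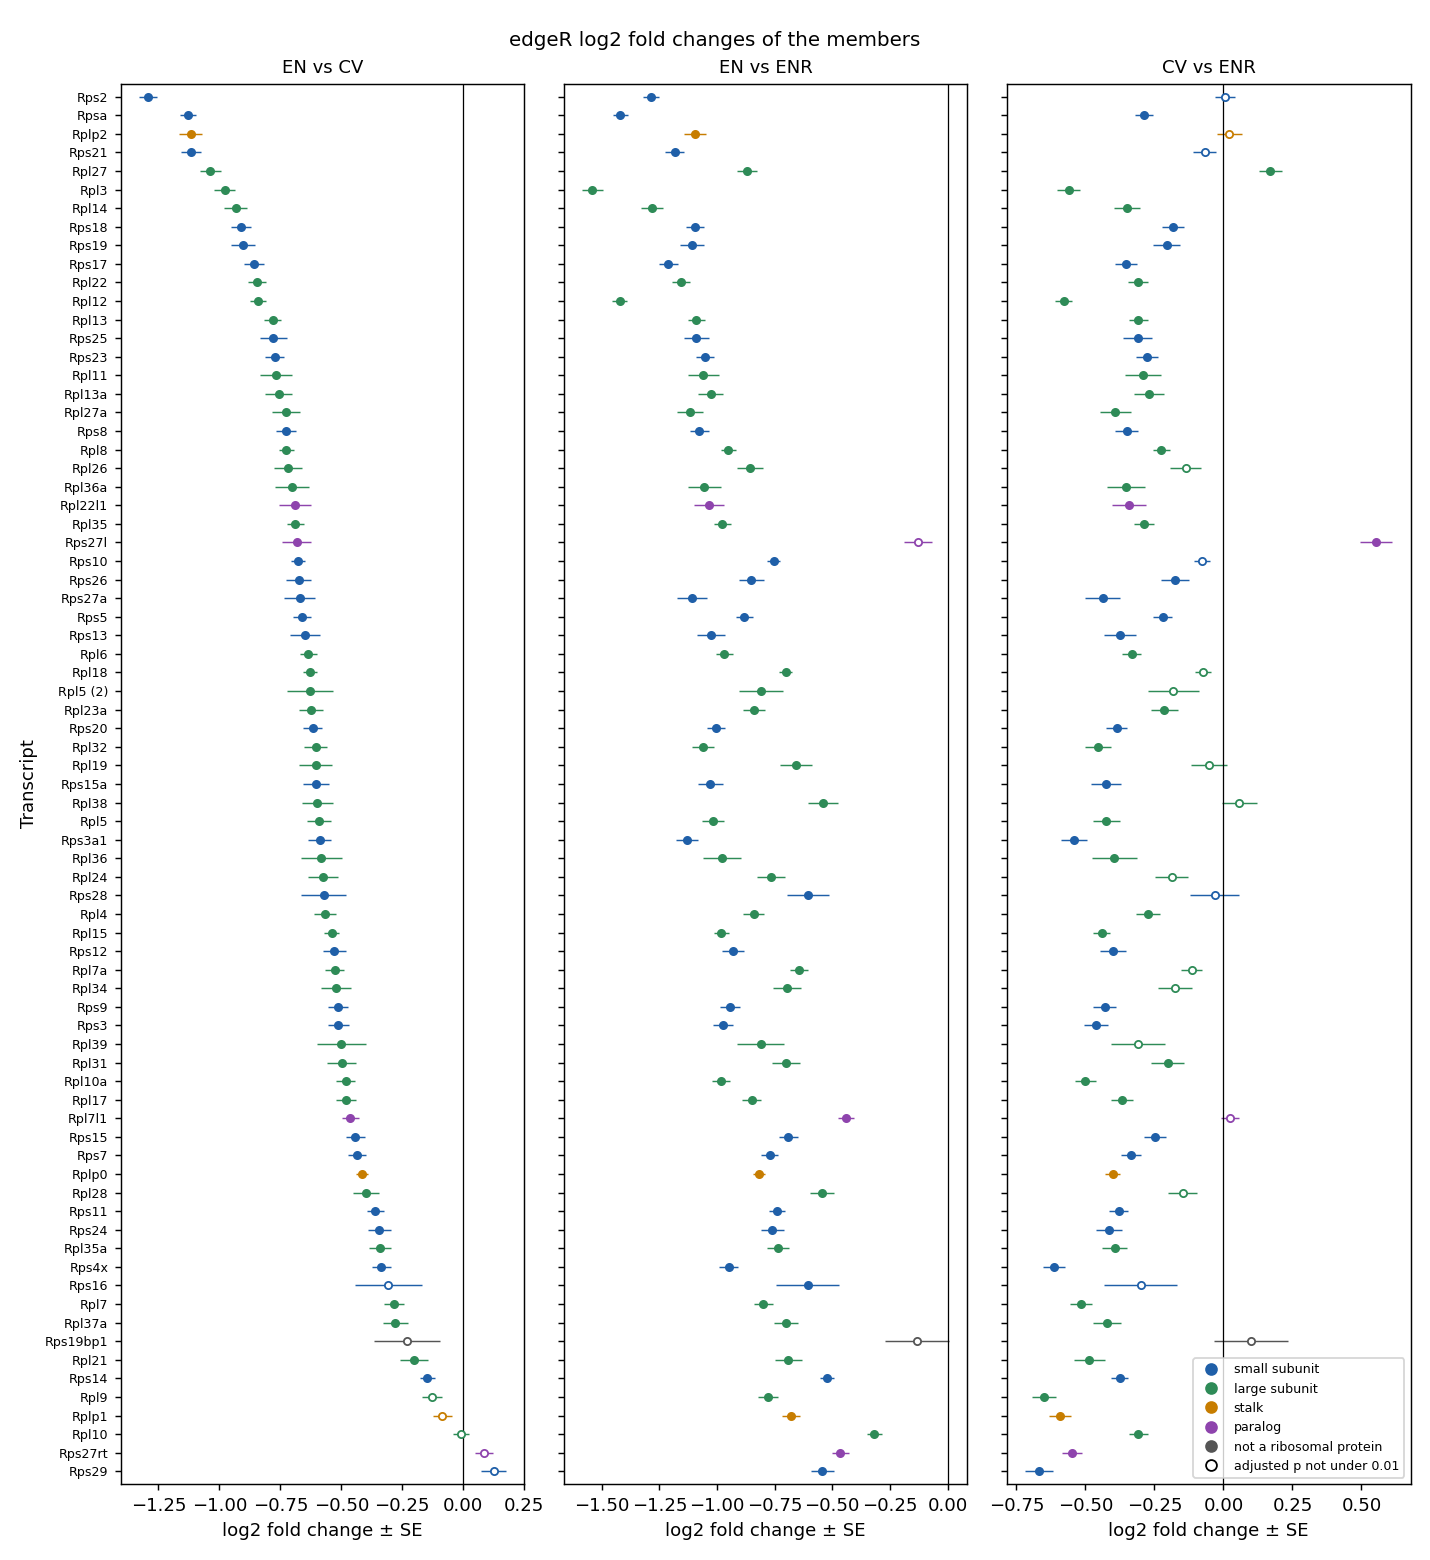
Log2 fold change ± SE (x axis) of 75 of the 76 transcripts (y axis, ordered by EN vs CV) in EN vs CV, EN vs ENR and CV vs ENR, by edgeR. Filled points have an adjusted p under 0.01, and colours give the subunit, stalk or paralogs. Filled points lie left of 0 in the first and second panels, and in CV vs ENR only Rpl27 and Rps27l lie filled to its right.

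Among the paralogs, Rps27l, a gene known to respond to p53, was the other member called higher in CV than in ENR. Rps27l stood at 302, 286, 282 and 264 CPM in CV, 199.6, 196, 189 and 188 in ENR and 173, 172, 201 and 161 in EN. CV was separate from both other cultures, while ENR and EN overlapped. Its log2 fold change was 0.55 ± 0.058 (SE) between CV and ENR, -0.68 ± 0.059 (SE) between EN and CV and -0.13 ± 0.060 (SE) between EN and ENR (adjusted p = 0.061). Rps27rt, a copy of Rps27, stood at 0.085 ± 0.037 (SE) between EN and CV (adjusted p = 0.045). Rps27 itself is not analysed here, and reads of a near-identical copy cannot be assigned with certainty.

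Rpl22l1 and Rpl22, of which Rpl22 is known to repress its paralog, were both lower in EN. Between EN and CV they stood at -0.69 ± 0.065 (SE) and -0.84 ± 0.038 (SE), and between EN and ENR at -1.03 and -1.15. Rpl7l1, a nucleolar paralog of Rpl7 and low in abundance, was lower in EN than in CV with -0.46, and Rpl7 with -0.28. In CV against ENR, Rpl7 was lower with -0.52 and Rpl7l1 stood at 0.023 (adjusted p = 0.56). The differences between paralogs were not tested. Rps19bp1, which the rule takes by its symbol, passed in none of the 3 comparisons, with log2 fold changes of -0.23, -0.13 and 0.099 and CPM of 9.45 to 16.3. Leaving out 1 library moved them to -0.31 to -0.11, -0.21 to -0.011 and 0.023 to 0.17.

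Gene lists around the ribosome are given by their counts, to be read against the 41.2% of all transcripts called lower and 35.2% called higher between EN and CV. Dedicated chaperones and importers of ribosomal proteins were lower in EN than in CV for 10 of 12 transcripts and higher for 1, with a median of -1.65. Ipo7, an importin for ribosomal proteins, was lower with -1.76, and Grwd1, which escorts Rpl3, with -2.93. Subunits and factors of RNA polymerase I and III, which make ribosomal RNA, were lower for 22 of 28 transcripts and higher for 1, with a median of -0.68. Polr1a and Polr1b, the largest subunits of RNA polymerase I, were lower with -2.14 and -2.01. Between CV and ENR, 1 of 12 chaperone transcripts was lower and 4 higher, and 6 of 28 polymerase transcripts were lower and 9 higher, with medians of 0.10 and 0.14, where 29.8% of all transcripts were called lower and 30.2% higher.

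Other mRNAs known to carry a TOP motif were lower in EN than in CV for 17 of 24 transcripts and higher for 5, with a median of -0.34, against 41.2% and 35.2% of all. Against ENR, 19 were lower and 3 higher in EN, with a median of -0.79 (37.2% and 35.5% of all), and CV had 14 lower and 3 higher, the median being -0.19 (29.8% and 30.2% of all). The nucleolar chaperone Npm1 was lower with -1.57 and the ribosome-bound scaffold Rack1 with -0.54 between EN and CV. Eef2, the translocase, was higher by 0.32, and Fau, whose product releases a small subunit protein, by 0.51 (adjusted p = 1.8e-07). Genes of the mTORC1 pathway were higher for 7 and lower for 9 of 22 transcripts, with a median of -0.0092, shares near those of all transcripts (35.2% and 41.2%). Between CV and ENR they were higher for 8 and lower for 3, with a median of 0.21 (30.2% and 29.8% of all). Eif4ebp1, a translation repressor that mTORC1 inhibits, was lower in EN than in CV with -1.65, and Mtor stood at 0.027 (adjusted p = 0.69). Both were higher in CV than in ENR, with 0.42 and 0.27. Folding and quality control factors at the ribosome were lower for 11 of 18 and higher for 4 between EN and CV, with a median of -0.40 (41.2% and 35.2% of all).

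The cultures also differed in cell type markers, whose part in the ribosomal protein results was not tested. All 5 proliferation transcripts (of Mki67, Top2a and Pcna) were lower in EN than in CV, and all 5 enterocyte, 3 goblet, 3 enteroendocrine and 2 tuft genes were higher. Paneth markers were higher for 1 of 3 and lower for 2. Summed TPM of proliferation markers was 654 to 692 in CV, 679 to 702 in ENR and 160.0 to 172 in EN, while enterocyte markers summed to 16490 to 17590, 6849 to 7812 and 31460 to 37590. Summed TPM of the 3 fibroblast markers measured stayed between 2.75 and 19.9 and that of the 3 leukocyte markers between 0.249 and 1.54. Of 3 fibroblast transcripts tested, 1 was higher in EN than in CV and 0 lower, and of 2 leukocyte transcripts 1 was higher and 1 lower. By Pearson correlation of log2(TPM + 1) with the summed members over 12 libraries, the 5 most similar of 6619 other transcripts were Kif11 (r = 0.999), Kif20a, Snrpe, Mcm5 and Tmpo. The 12 points fall into 3 cultures, so these values describe the order of the cultures.

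Start sites of the members were examined in the ATAC-seq and histone data, to ask whether open chromatin and marks at these promoters differed between cultures. There were 4 ATAC libraries and 3 of each mark per culture. The authors deposited scores for 94469 regions in mm9, 95 of which lay within 500 bp of a start of 74 of the 75 genes. These regions carried high signal, with a median ATAC score of 52.3 against 5.75 over all regions, a median H3K27ac score of 103 against 4.22 and a median H3K4me3 score of 75.8 against 1.56. A region was called changed over CV, ENR and EN where limma's F test, run on log2 of the score plus 1, gave an adjusted p under 0.01, and log2 differences below are of such values.

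ATAC changed at 14 of the 95 regions, whereas 26.9% of all regions were called. Without the mean-variance trend in limma the count was 6, against 22.3% of all. Of the 14, 8 were higher in EN than in CV and 6 lower, and the median difference over the 95 was -0.0055 on the log2 scale. Under quantile normalization 14 were called and the split turned to 5 higher and 9 lower. At the Rplp2 start (chr7:148633054-148634773), scores were 60, 62, 69 and 75 in CV, 62, 63, 58 and 67 in ENR and 25, 35, 29 and 38 in EN, a difference of -1.06 between EN and CV (adjusted p = 1.8e-05). EN lay below both other cultures without overlap. At the Rpsa start (chr9:120036256-120037928) scores were 58, 57, 59 and 63 in CV, 80, 88, 99 and 92 in ENR and 74, 94, 114 and 91 in EN, higher in EN than in CV by 0.63, while its RNA was lower. The Rpl3 start (chr15:79912176-79914348) was lower in EN, at -0.96. The others with a lower score in EN than in CV were at Rpl4, Rps26, Rps3 and Rpl21. Those with a higher score in EN than in CV were at Rpl39, Rpl37a, Rpl7, Rps19, Rpl5, Rpl31 and Rps21. At Rpl21 the EN and CV libraries overlapped, with a difference of -0.21, while EN against ENR stood at -0.94. At Rps21 scores were 203 to 244 in ENR and 190 to 232 in EN, which overlapped. Over all regions, scores summed to 1752385 to 1840402 per library in CV, 1897795 to 1962331 in ENR and 1993594 to 2109261 in EN, whose part in these differences was not tested. The median RNA log2 fold change between EN and CV was -0.58 for the 14 genes with a changed ATAC region and -0.60 for the 60 without.

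**Figure D5:**
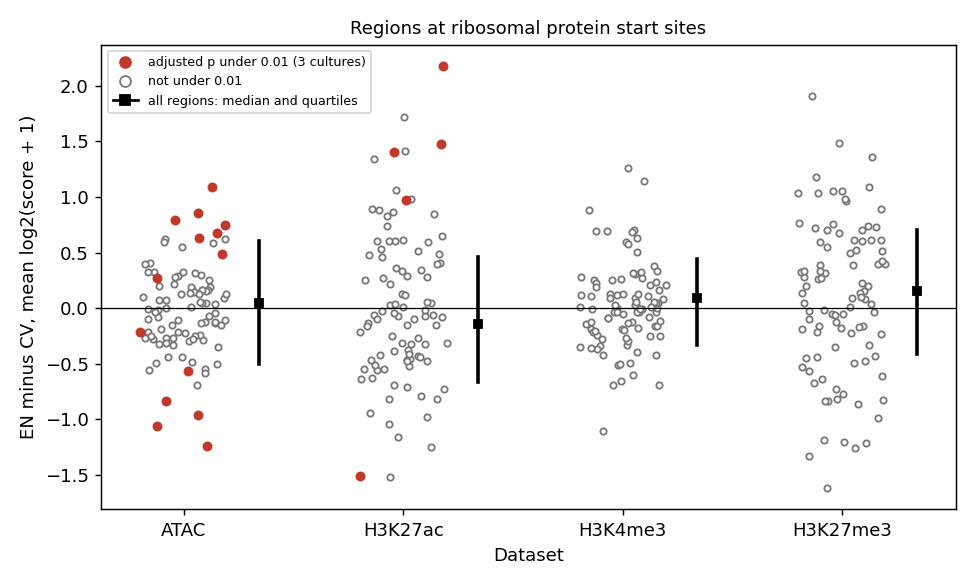
Difference between EN and CV in mean log2(score + 1) (y axis) at 95 regions near ribosomal protein start sites, for ATAC and 3 histone marks (x axis). Red points were called over the 3 cultures, open points were not, and black squares with bars give the median and quartiles of all regions. The open points centre near 0, and red points appear for ATAC (14) and H3K27ac (5) only.

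H3K27ac, a mark of active promoters and enhancers, changed at 5 of the 95 regions, against 2.93% of all. All 5 calls were lost without the trend (0 regions, and 0% of all) or with the replicate block (0 regions, and 0% of all). Higher in EN than in CV were the regions of Rpl24, Rpl7, Rpl18 and Rpl15, and lower was that of Rps19. The called Rpl24 region (chr16:55973402-55975499, difference 2.18) lay 7014 bases from the start of the first-listed Rpl24 transcript, at another annotated start. The region at the first-listed start (chr16:55965912-55967923) stood at -0.069 (adjusted p = 0.95). The other 4 called regions, and the 14 called for ATAC, lay within 500 bp of the first-listed start, as did 81 of the 95. At the Rps19 start (chr7:25668866-25671260) H3K27ac scores were 340, 242 and 248 in CV, 251, 186 and 187 in ENR and 60, 96 and 150 in EN, a difference of -1.51 (adjusted p = 0.00012). EN lay below both other cultures, while ATAC at the same region was higher in EN than in CV (0.75). Quantile normalization gave 15 called H3K27ac regions (1.36% of all regions), 1 higher and 14 lower in EN, where the 5 above split into 4 and 1. Without any 1 of the 9 libraries the count ranged from 1 to 6, and it was 1 without CV replicate 5 or EN replicate 2, 2 without EN replicate 3 or EN replicate 4, and 3 without ENR replicate 2 or ENR replicate 4. H3K4me3, a mark of start sites, and H3K27me3, a repressive mark, were called at 0 of the 95 regions by limma, against 2.35% and 0.33% of all. At an unadjusted p under 0.05 they counted 14 and 5, or 14.7% and 5.26%, against 28.2% and 12.5% of all regions.

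Hnf4g, a transcription factor of differentiated enterocytes, was profiled in 1 library per culture, which gives no test. The 95 regions, 0.101% of all, held 122 of 84340 reads in CV (0.145%, exact 95% interval 0.12% to 0.173%), 579 of 352600 in ENR (0.164%, 0.151% to 0.178%) and 4701 of 1816497 in EN (0.259%, 0.252% to 0.266%). These intervals cover counting error only, and the libraries differ in depth.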

How the data were processed

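RNA-seq, ATAC-seq and ChIPmentation of histone marks and Hnf4g were analysed in 54 of 66 samples, and the other 12 were not used here. For RNA, the authors deposited expected counts and TPM from kallisto (0.43.0 in the submitters' processing notes), with an index limited to transcripts with quantified protein, and mRNA copies scaled to spike-ins, whose values are signal on an absolute scale. For 39 ATAC and histone libraries, the authors deposited a normalized score per mm9 region, rounded to whole numbers, and for Hnf4g raw counts of reads.

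Expected counts were rounded and transcripts detected in 4 or more of the 12 libraries (9288) entered 1 fit with edgeR 4.0.16 (TMM, without the 92 spike-ins; common dispersion 0.00475). Regions detected in 3 or more libraries were tested with limma 3.58.1 (pseudocount 1, trend). DESeq2 1.42.0 was an alternative. R was 4.3.3. Start sites came from GENCODE vM1.

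The members and gene lists were chosen with earlier results of these data known. Genes were named by rule: the 4 highest and 4 lowest by TPM, the 4 largest changes each way per comparison, members changed nowhere, the stalk, Rpsa, Rps27a, Rpl5, Rpl11 and paralogs with their parents. Tested on simulated data with 200 changes, the RNA test found 87% at 1.5-fold and 95% at 2-fold with 1 false call each. The region test on 10000 ATAC regions found 17% at 2-fold and 79% at 4-fold with 1 false call each, so it missed most 2-fold changes there. These regions were drawn from all ATAC regions, whose median score was 5.75, against 52.3 at the start sites of members. No histone mark was simulated, so the share found at the members' regions was not measured. The region test was first required to find a set share of 2-fold changes. When it did not, the share was lowered once and the requirement then replaced by checks of the estimated size, the null p-values and the false calls.

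Same-numbered ATAC libraries deviated together in all 12 pairs (r from 0.141 to 0.633), a pairing seen in the data and not in the labels. For RNA (r from -0.0466 to 0.108) they did not. For the histone marks such pairs had r of both signs, from -0.127 to 0.166 for H3K27ac, -0.514 to 0.469 for H3K4me3 and -0.0755 to 0.112 for H3K27me3. No pair of replicates held identical counts. Results for 1 member and 1 other gene are not reported by name, and that member is left out of the plots by transcript.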

Additional observations from a re-analysis of the deposited data

Results flagged for a closer look

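Of 99 groups of 4 libraries examined for a library far from the others, 4 stood out, and chance alone would mark about 1 in 20 groups. In each, the gap of the outer library to its neighbour as a share of the whole range was above Dixon's critical value for 4 libraries. In ENR, Rpl5 stood at 3475, 3461, 3473 and 3390.0 CPM (0.831), replicate 4 being lowest, and Rpl9 at 2523, 2469, 2467 and 2470.0 CPM (0.951), replicate 1 being highest. In EN, Rps4x stood at 1386, 1544, 1519 and 1523 CPM (0.843), replicate 1 being lowest. The share of counts held by all members in ENR was 12.1, 11.7, 11.7 and 11.7% (0.857), replicate 1 being highest.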

How the results depend on the processing

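The counts of changed transcripts (68, 74 and 58 in the 3 comparisons) between EN and CV and between EN and ENR stayed within 1.5 times under every setting except the deposited copies and, for EN and CV, a minimum fold of 1.5, which left 41 (54.5% of all transcripts). That minimum left 4 between CV and ENR, and scaling to spike-in counts left 22 (28.4% of all in both). The deposited copies gave 0, 1 and 0 changed members in the 3 comparisons (61.1%, 67.7% and 20.1% of all), the 1 being Rps19bp1, higher in EN, and medians of 0.25, -0.21 and -0.49. Medians between EN and CV were -0.54 with DESeq2, RLE factors or the 2 cultures alone, -0.94 on TPM, -1.02 by library size and -1.01 by spike-ins. Between EN and ENR they were -1.06, -1.24 and -1.39 for the last 3 of these, and between CV and ENR -0.17, -0.26 and -0.42. Leaving out a library gave medians of -0.63 to -0.56, -0.91 to -0.86 and -0.34 to -0.31, and counts of 67 to 69, 74 to 75 and 56 to 61. With the replicate block the counts were 68, 74 and 62, ATAC 16, H3K27ac 0, H3K4me3 0 and H3K27me3 0; the RNA and histone libraries share only a number, and in no other result did the block move a count by over 1.5 times.

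ATAC counted 6 regions without the trend, 14 with quantile normalization (5 higher) and 25 at an adjusted p under 0.05 (22.3%, 26.9% and 39.7% of all regions), and 11 to 16 when a library was left out. H3K27ac counted 0 without the trend, 15 with quantile normalization (1 higher), 12 at 0.05 (0%, 1.36% and 6.65% of all) and 1 to 6 when a library was left out. H3K4me3 counted 2 with quantile normalization and 1 at 0.05 (1.13% and 6.38% of all). Keeping only regions at the first-listed start, chosen after seeing the data, gave 14, 4, 0 and 0 for ATAC, H3K27ac, H3K4me3 and H3K27me3.

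Signs turned on the log2 scale as follows. In the deposited copies between EN and CV they turned for Rplp0 (0.48), Rplp1 (0.82), Rps27a (0.17), Rps27l (0.13), Rpl22l1 (0.12), Rpl7 (0.62), Rpl7l1 (0.34), Rpl5 (0.29), Rpl11 (0.064), Rpl10 (0.91), Rps19bp1 (0.52), Rps12 (0.35), Rpl32 (0.26), Rps15a (0.21), Rpl9 (0.79), Rps4x (0.56) and Rps16 (0.56), between EN and ENR for Rps27l (0.69), Rps27rt (0.19), Rpl7l1 (0.51), Rps29 (0.16), Rpl10 (0.42), Rps19bp1 (0.86) and Rps16 (0.18) and between CV and ENR for Rps2 (-0.17) and Rplp2 (-0.16). Between EN and CV, Rps27rt (-0.34) and Rps29 (-0.30) turned by library size, Rps27rt (-0.28) and Rps29 (-0.23) on TPM and Rps27rt (-0.34) and Rps29 (-0.31) by spike-ins. Rpl10 turned with DESeq2 (0.054), RLE factors (0.054) and the 2 cultures alone (0.052), and ranged from -0.026 to 0.011 when a library was left out. Between CV and ENR, Rps2 (-0.021), Rplp2 (-0.0062) and Rpl7l1 (-0.0048) turned with DESeq2, Rps2 (-0.021), Rplp2 (-0.0061) and Rpl7l1 (-0.0044) with RLE factors, Rps2 (-0.087), Rplp2 (-0.076), Rpl7l1 (-0.070) and Rps19bp1 (-0.0040) by spike-ins and Rps21 (0.080) on TPM, and Rps2 ranged from -0.012 to 0.034 when a library was left out. The causes were not tested.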
